A study of Arabidopsis thaliana with 3 samples.

Results

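Messenger RNAs of 7 Arabidopsis thaliana sugar transporters were examined for crosslinks to TSN1 (Tudor staphylococcal nuclease 1, AT5G07350). The 7 genes, listed by their gene identifiers, were ERD6 (AT1G08930), ESL1 (AT1G08920), SFP1 (AT5G27350), SFP2 (AT5G27360), ERDL6 (AT1G75220), AT1G19450 and STP1 (AT1G11260). They were chosen with the binding-site list in view, so their numbers of sites and their scores are given as descriptions and were not tested. Of the 7 genes, 4 were among the 1504 target genes of the series, and these 4 held 60 of its 5673 binding sites.

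The samples formed 1 group of 3 biological replicates and had no control. All came from plants of the wild-type Col-0 background that carried GFP-tagged TSN1 driven by the TSN1 promoter. Seedlings were 14 days old, each replicate pooled 3 plates of mostly aerial tissue, and RNA was joined to protein in vivo by ultraviolet light of 254 nm at 2000 mJ/cm2. iCLIP2 then purified the fusion protein on GFP-binding beads and read the crosslinked nucleotide from the point where reverse transcription stopped. The deposited lists pool the replicates, so values of single replicates, their spread and their read depth are unknown. With no control sample, crosslinks to TSN1 and pull-down background cannot be told apart.

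Sugar transporters of the major facilitator type move sugars across a membrane through a single protein with many membrane-spanning segments. The ERD6-like proteins are a large plant family of sugar facilitators, several of which lie in the vacuolar membrane and release sugar from the vacuole. STP proteins take up hexoses together with protons at the plasma membrane. TSN1 is an RNA-binding protein with nuclease-like domains and a Tudor domain, known from stress granules.

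In these lists the members were split between genes with 7 or more binding sites and genes with none. ERD6, STP1, SFP1 and ERDL6 had 30, 12, 11 and 7 binding sites, whereas ESL1, SFP2 and AT1G19450 had no site. A binding site in these lists is 5 nt wide, and a called peak is a single crosslinked nucleotide. Among all annotated nuclear protein-coding genes 5.03% had a site and 6.69% had a called peak. Because the members were picked from this readout, nothing is read from the difference between 4 of 7 and these shares. ESL1, a vacuolar membrane facilitator known from cells beside the xylem, SFP2, and AT1G19450, a close relative of ERDL6, also had no called peak on either strand of their gene span. ESL1 is the direct neighbour of ERD6 on chromosome 1, and SFP2 is the direct neighbour of SFP1 on chromosome 5. So in both tandem pairs the called peaks lay in 1 copy. Crosslinks that were not called as peaks are not seen in these lists. How reads that match several gene copies were treated is not given in the sources used here, and RNA abundance was not measured, so the part of either in this split was not tested.

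ERD6, named for its early response to dehydration, carried the most. Its 30 sites ranked 2nd among 1403 protein-coding targets, between a gene with 36 and others with 27. They lay on the plus strand of chromosome 1 between 2873702 and 2877125 (TAIR10), over 3424 nt. The span of the gene held 224 called peaks, all on the plus strand, the 8th highest number among 1834 genes with a called peak. By the summed score of its sites, 604, ERD6 ranked 12th. The score is the authors' own value per site, has no stated unit, and is used only to describe and rank sites within this list.

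STP1, a hexose-proton carrier known from seedlings and guard cells, had 12 sites between 3777539 and 3780230 on the plus strand of chromosome 1. They ranked 46th by number and 42nd by summed score (319). SFP1, a gene known for higher expression in ageing leaves, had 11 sites between 9650893 and 9654083 on the plus strand of chromosome 5, which ranked 58th by number and 199th by summed score (123). ERDL6, a glucose exporter of the vacuolar membrane, had 7 sites between 28229204 and 28231897 on the minus strand of chromosome 1, which ranked 178th by number and 284th by summed score (86.5). SFP1 and STP1 were therefore close in site number but apart in score. The called peaks numbered 123 in STP1, 107 in SFP1 and 98 in ERDL6, and none lay in the span of a second protein-coding gene, although the spans of STP1 and ERDL6 each overlap that of 1 other gene.

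**Figure D1:**
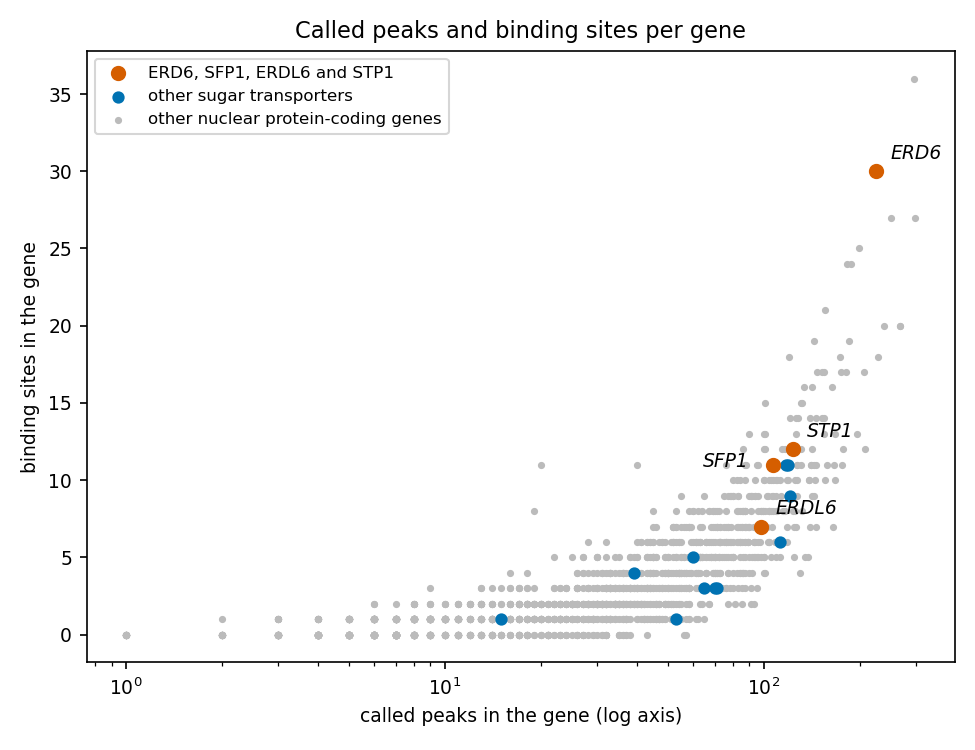
Each point is 1 nuclear protein-coding gene with a called peak; the horizontal axis gives its called peaks on a log scale and the vertical axis its binding sites. ERD6 stands near the top with 224 peaks and 30 sites, while SFP1, STP1 and ERDL6 lie among genes with about as many peaks, and other listed sugar transporters are marked in blue (PGLCT, whose peaks all lie in the span of a second gene too, is not drawn).

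Median site scores were higher in STP1 and ERD6 than in ERDL6 and SFP1, with overlapping ranges. STP1 sites had a median score of 25.6 (order-statistic 95% interval 15.4 to 34.6, 12 sites) and ranged between 11.4 and 47.8. ERD6 sites had a median of 17.1 (13.2 to 21.3, 30 sites) and ranged between 7.78 and 62.1. ERDL6 sites had a median of 12.4 (7.93 to 18.7, 7 sites), and SFP1 sites one of 11.4 (7.10 to 14.6, 11 sites). The intervals of STP1 and ERD6 overlap, as do those of ERD6, ERDL6 and SFP1, so neighbours in this order are not distinguished. The intervals cover counting error over sites of the pooled list, and not variation between plants. Over all 60 sites of the members the median was 15.2 (13.0 to 18.4), against 12.3 (12.1 to 12.4) for the 5295 sites in protein-coding genes. In STP1 11 of 12 sites lay above the median score of the whole list (12.5), in ERD6 23 of 30, in SFP1 4 of 11 and in ERDL6 3 of 7. Above the upper quartile of the list (19.1) lay 7 sites of STP1 and 11 of ERD6, and no site of SFP1 or ERDL6.

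**Figure D2:**
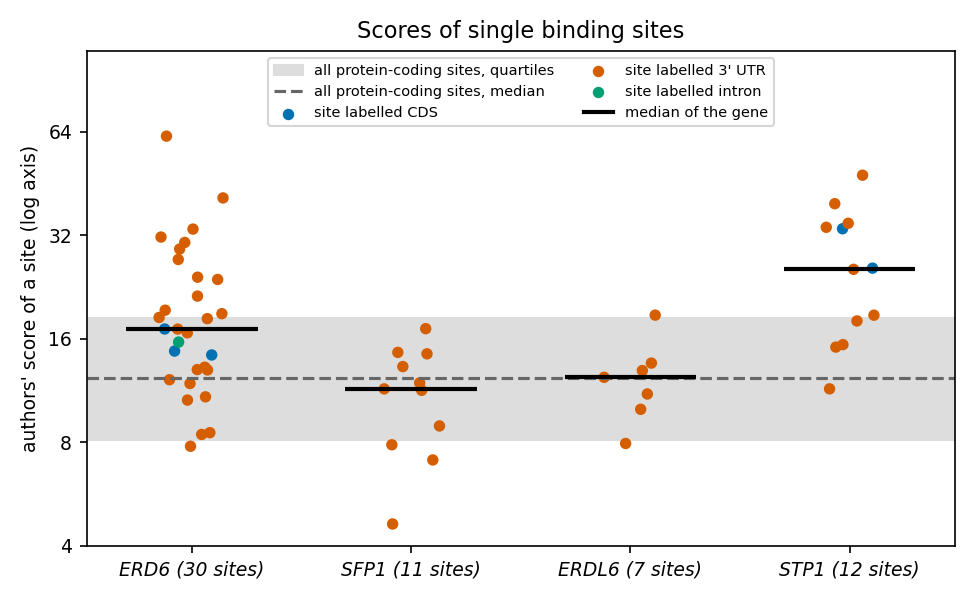
Points are single binding sites of the 4 genes with sites, coloured by the authors' region label, with the authors' score on a log axis; black bars are medians of a gene, and the dashed line and grey band are the median (12.3) and quartiles of all sites in protein-coding genes. STP1 and ERD6 reach well above the band, to 47.8 and 62.1, and SFP1 and ERDL6 stay at or below 18.7.

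Within ERD6 the highest score was in the middle of the gene. The site at 2875032 to 2875036 scored 62.1, the 205th highest of 5673 sites, and held 4 called peaks. It touches the site at 2875027 to 2875031, which scored 18.3, and a further site at 2875054 to 2875058 scored 30.5. This stretch lay at a relative position of about 0.44 on a scale that runs along the gene span, introns included, with 0 at its 5' limit and 1 at its 3' limit. The next highest sites of ERD6 lay in the middle and towards the 3' end. The site at 2876425 to 2876429 scored 41.1 and lay at 0.79. The site at 2875245 to 2875249 scored 33.3 and lay at 0.49. The site at 2877038 to 2877042 scored 31.6 and lay at 0.94, again touching a neighbour, which scored 8.52. The most 5' site, 2873702 to 2873706, scored 17.1, and the most 3' site, 2877121 to 2877125, scored 10.8. The top site made up 10.3% of the summed score, so the sum did not rest on it alone.

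In STP1 most of the highest site scores lay in the 5' part, but strong called peaks outside sites lay further 3'. The site at 3778210 to 3778214 scored 47.8 at a relative position of 0.27. With its neighbour at 3778193 to 3778197 (33.7), the pair of touching sites at 3777539 to 3777548 (25.7 and 33.4) and the site at 3777934 to 3777938 (34.6), the first 5 sites included 4 of the 5 highest scores of the gene. The exception was the site at 3779525 to 3779529, which scored 39.5. Called peaks outside sites at 3779400, 3779416 and 3780188, all 3' of the first 5 sites, scored 47.0, 45.8 and 44.1. The most 3' site, 3780226 to 3780230, had the lowest score, 11.4. SFP1 had its highest score, 17.1, at 9652952 to 9652956, with 13.3 at its most 5' site (9650893 to 9650897) and 7.10 at its most 3' site (9654079 to 9654083). ERDL6 had its highest score, 18.7, at 28231089 to 28231093, with 12.4 at its most 5' site (28231893 to 28231897) and 9.97 at its most 3' site (28229204 to 28229208).

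**Figure D3:**
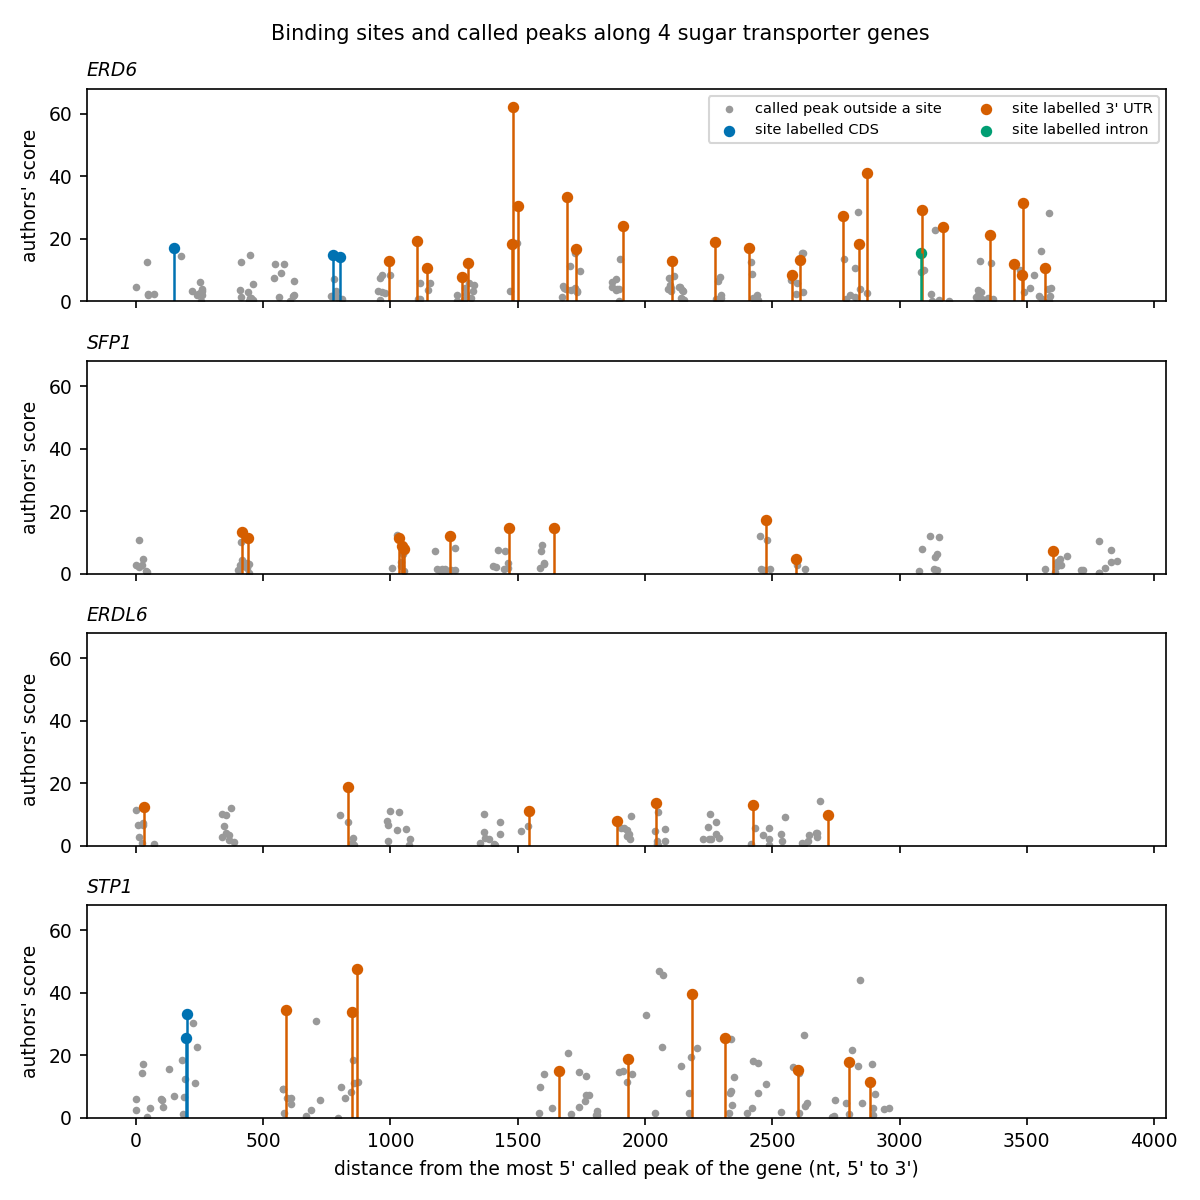
For each gene the horizontal axis gives the distance in nt from its most 5' called peak, in the direction of transcription, and the vertical axis the authors' score; stems are binding sites coloured by region label and grey points are called peaks outside sites. In ERD6 peaks and sites recur along the whole gene with a maximum of 62.1. SFP1, STP1 and ERDL6 have peak-free stretches of up to 805, 710 and 417 nt, and SFP1 and ERDL6 have fewer sites of lower score.

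Called peaks came in separate clusters along each gene. Peaks no more than 50 nt apart were joined, a distance chosen after the data had been seen. ERD6 then had 19 clusters, 16 of which held a site, with a median width of 63 nt and a median of 11 peaks. The peak-free stretches between them measured between 75 and 208 nt, with a median of 126 nt. In the other genes the median stretch was 72 nt (STP1), 139.5 nt (ERDL6) and 150 nt (SFP1), and the longest stretches were longer than in ERD6. SFP1 had 12 clusters (8 with a site) and peak-free stretches of up to 805 nt, ERDL6 had 11 (7 with a site) and stretches of up to 417 nt, and STP1 had 12 (9 with a site) and stretches of up to 710 nt. The clusters covered 1281 nt in ERD6, 1267 nt in STP1, 781 nt in ERDL6 and 666 nt in SFP1. ERD6 and STP1 thus had peaks over about the same length, with 224 peaks in ERD6 and 123 in STP1. No exon model was used, so whether peak-free stretches are introns was not tested.

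The richest clusters differed between the genes. The ERD6 cluster with most peaks was its last, with 20 peaks and 4 sites. The cluster that holds the 62.1 site was narrow, 33 nt, and had 10 peaks and 3 sites. In STP1 the first cluster (21 peaks, 2 sites) and the last (20 peaks, 2 sites) were the richest. In SFP1 the richest cluster had 15 peaks and 3 sites, and in ERDL6 it had 12 peaks and 1 site. The 3 ERD6 clusters without a site began 0, 410 and 545 nt from the most 5' peak, and their highest peaks scored 12.5, 14.9 and 12.0.

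The share of called peaks that lay inside sites was highest in ERD6 and lowest in ERDL6. It was 74 of 224 in ERD6 (33.0%, Wilson 95% interval 27.2 to 39.4), 30 of 107 in SFP1 (28.0%, 20.4 to 37.2), 25 of 123 in STP1 (20.3%, 14.2 to 28.3) and 17 of 98 in ERDL6 (17.3%, 11.1 to 26.0). The intervals of neighbouring genes in this order overlap, and neighbouring peaks share a site, so the true precision is lower. Together the members had 146 of 552 peaks inside sites (26.4%, 22.9 to 30.3), against 11087 of 68030 (16.3%, 16.0 to 16.6) in all nuclear protein-coding genes. Without ERD6 the members' share was 22.0%. Sites and peaks come from the same reads and the members were chosen by sites, so this difference was not tested.

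The share inside sites changed along ERD6. The span was divided into 4 equal parts, numbered 5' to 3'. In part 1, 3 of 38 called peaks lay in a site, in part 2 this was 30 of 67, in part 3 it was 18 of 58 and in part 4 it was 23 of 61. The parts held 1, 12, 6 and 11 sites in that order. STP1 had 3 sites in each part, with 35, 16, 45 and 27 peaks. SFP1 and ERDL6 had no called peak in part 1 of their spans, and part 4 held 3 and 4 sites.

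**Figure D4:**
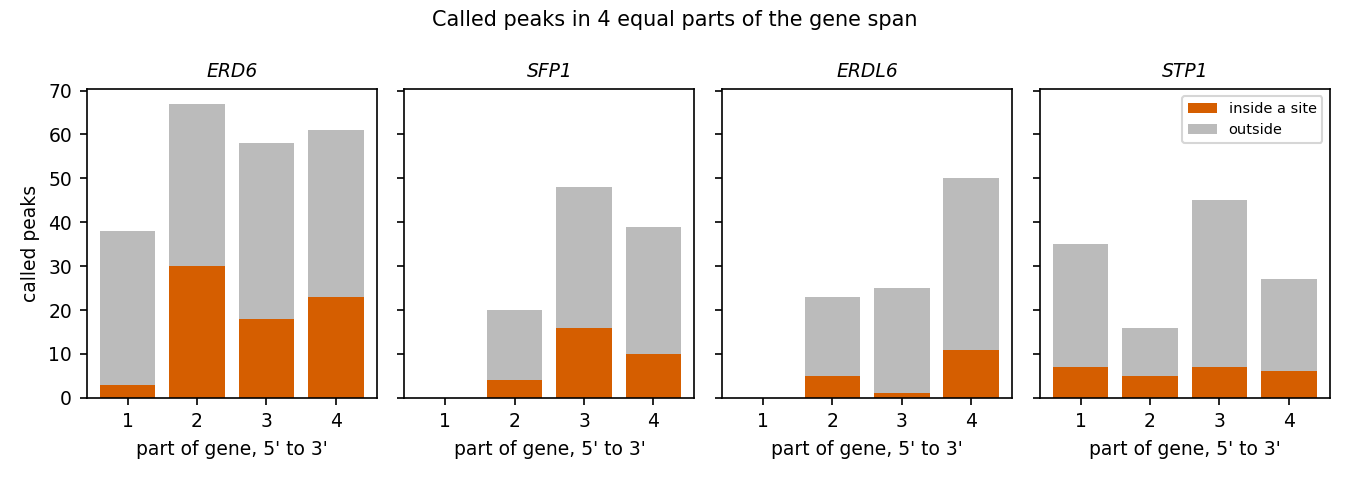
Bars give the number of called peaks in 4 equal parts of the gene span, ordered 5' to 3', with the part inside binding sites in orange and the part outside in grey. ERD6 has 38 peaks in part 1, of which 3 are inside sites, and 67 in part 2, of which 30 are inside, and SFP1 and ERDL6 have no peak in part 1.

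Strong called peaks outside sites were most frequent in STP1. Of its 51 peaks above the median site score of the list (12.5), 18 lay in a site (35.3%, Wilson 95% interval 23.6 to 49.0). In ERD6 it was 30 of 47 (63.8%, 49.5 to 76.0), and in SFP1 and ERDL6, with few strong peaks, 4 of 4 and 3 of 4. Over all protein-coding genes it was 3349 of 7746 (43.2%, 42.1 to 44.3), a share that the STP1 interval includes. The 3 strongest STP1 peaks outside sites, at 3779400, 3779416 and 3780188, scored 47.0, 45.8 and 44.1, close to its highest site. They lay 123, 111 and 40 nt from the nearest site centre. Of the 33 strong STP1 peaks outside sites, 20 had no other called peak within 5 nt, against 4 of 17 in ERD6 and 2049 of 4397 in all protein-coding genes. Strong peaks inside sites always had one within 5 nt, in the members (55 of 55) and in all protein-coding genes alike. Whether the way sites were built fixes this outcome in advance was not tested.

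Most sites of the members carried the label 3' untranslated region (3' UTR) in the authors' table. This was so for 54 of 60 sites (90.0%, Wilson 95% interval 79.9 to 95.3), against 3547 of 5295 in all protein-coding genes (67.0%, 65.7 to 68.2). All 11 sites of SFP1 and all 7 of ERDL6 had the label, as did 26 of 30 in ERD6 and 10 of 12 in STP1. The label coding sequence (CDS) was given to the 3 most 5' sites of ERD6 and the 2 most 5' sites of STP1. A single ERD6 site, 2876634 to 2876638 with a score of 15.6, was labelled intron, and its centre lay 7 nt upstream of that of a 3' UTR site with a score of 29.2. No member had a site labelled 5' UTR. Sites of a gene are not independent, so the share was not tested. Among all protein-coding targets, 651 of 1403 (46.4%) had 3' UTR labels only. Among those with at least 7 sites, the number in ERDL6, it was 18 of 234.

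The 3' UTR label reached over most of each gene. So labelled sites spanned 2580 nt in ERD6, 2297 nt in STP1, 2694 nt in ERDL6 and 3191 nt in SFP1. All 4 genes exceeded 1000 nt, as did 198 of the 711 protein-coding genes with at least 2 such sites (27.8%), whose median extent was 490 nt. When the label was kept only for sites up to 500 nt from the last one that bore it, it covered 7 sites in ERD6, 3 in STP1, 2 in ERDL6 and 1 in SFP1. That makes 13 of 60 sites (21.7%), against 46.1% in all protein-coding genes. By construction a gene with 1 labelled site, or with labelled sites over a short stretch, keeps the label under this rule. Target genes had a median of 2 sites. The members were not compared with genes of like site number or extent, so nothing is read from the turned order. Neither share says where the coding sequence of the main transcript ends, and no exon model was used here.

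Relative positions make no use of the labels. Over the members the median relative position was 0.59 (order-statistic 95% interval 0.50 to 0.72, 60 sites), against 0.63 (0.62 to 0.64) for 5189 sites in all nuclear protein-coding genes. ERDL6 sites lay furthest to the 3' end with a median of 0.75, then ERD6 with 0.62, SFP1 with 0.54 and STP1 with 0.53. In ERD6 the sites ran between 0.10 and 0.96, and 13 of 30 lay below 0.5. Above 0.75 lay 21 of the members' 60 sites (35.0%), against 36.6% in all protein-coding genes. The median position of called peaks was close to that of the sites in 3 genes, at 0.75 in ERDL6, 0.58 in SFP1 and 0.54 in STP1. In ERD6 the peaks had a median of 0.54, lower than that of its sites.

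Sites in ERD6 were the most closely spaced. Neighbouring centres lay a median of 94 nt apart in ERD6, 177 nt in SFP1, 250 nt in STP1 and 364 nt in ERDL6. Over the members the median was 167 nt (order-statistic 95% interval 94 to 191), against 158 nt (148 to 165) in all protein-coding genes, and 250 nt without ERD6. Touching sites, with centres 5 nt apart, numbered 2 pairs in ERD6 and 1 in STP1. That was 3 of 56 gaps in the members (5.4%), against 127 of 3892 in all protein-coding genes (3.3%), a difference that was not tested. With sites up to 50 nt apart joined, ERD6 had 19 groups of sites, STP1 10, SFP1 8 and ERDL6 7, or 44 in all.

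The members were set beside 7 families of sugar transporters listed by gene identifier, 78 genes in all. Of these, 16 had a called peak and all 16 had a site. The 16 include the 4 members picked for their sites, and PGLCT, whose called peaks all lay in the span of a neighbouring gene too. Of the 70 listed genes other than the 7 members and PGLCT, 11 had a called peak and the same 11 had a site (15.7%). Among nuclear protein-coding genes with a called peak in their own span alone, 73.8% had a site, and among all annotated ones 5.03% did. The 11 genes held between 15 and 121 called peaks, whereas called genes without a site had a median of 7. The comparison with 73.8% makes no allowance for peak number. Which of the listed genes were expressed was not measured. In the ERD6-like family 3 of 19 genes were targets, and all 3 were members (ERD6, SFP1 and ERDL6), with 48 sites. The other 16 genes of the family had no called peak. Of the STP hexose carriers 4 of 14 were targets with 28 sites, of the SUC sucrose carriers 2 of 9 with 14, of the inositol and polyol transporters 2 of 10 with 14, and of the SWEET exporters 3 of 17 with 12. The vacuolar membrane carriers TMT and VGT had 1 target of 6, and the plastid glucose transporters 1 of 3, with 1 site each.

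**Figure D5:**
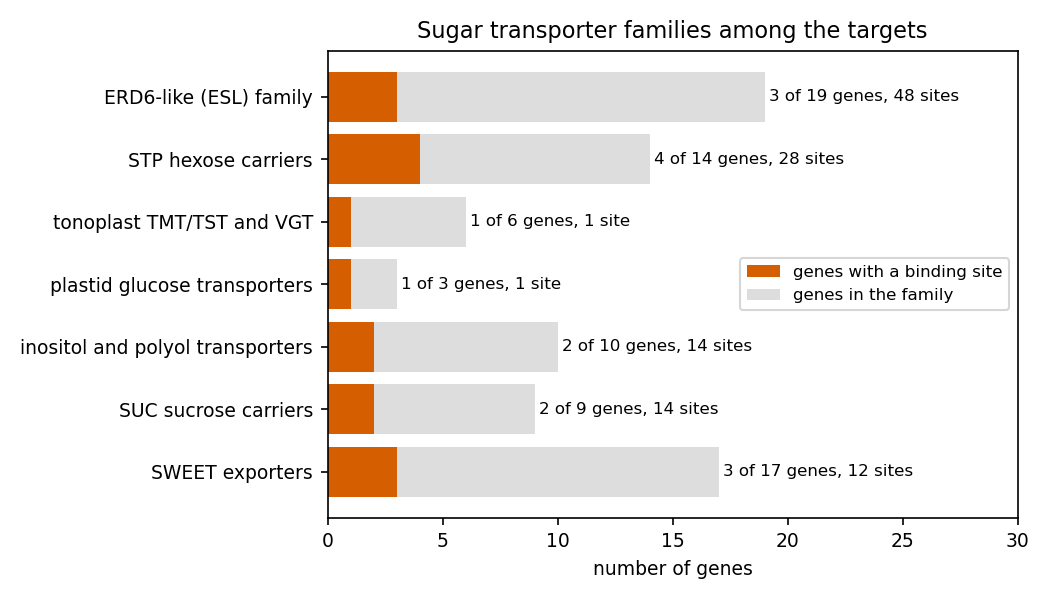
Horizontal bars give the number of genes in each of 7 sugar transporter families, with the genes that had a binding site in orange and all genes of the family in grey. The ERD6-like family has 3 of 19 genes and 48 sites, of which ERD6 alone holds 30; without ERD6 it has 18, fewer than the 28 of the STP carriers.

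Outside the 7 members, 12 listed transporters were targets with 58 sites. SUC1, a sucrose-proton carrier, and PMT6, a carrier of the polyol type, had 11 sites each, as many as SFP1. SUC1 reached a score of 37.8 and PMT6 one of 21.5. MSS1, also known as STP13, had 9 sites, STP4 had 6 and STP14 had 1. SUC2, which loads sucrose into the phloem, had 3 sites and 70 called peaks. SWEET11 and SWEET12, which release sucrose from leaf cells for phloem loading, had 3 and 5, and SWEET1 had 4. PMT5 had 3 sites and 65 called peaks. TMT1, which moves sugar into the vacuole, had 53 called peaks and 1 site, with a score of 7.00. PGLCT, the glucose transporter of the plastid envelope, had 1 site, and its 9 called peaks also lay in the span of a neighbouring gene.

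Pooled over genes, the other transporters had a lower median score and lower shares than the members, but single genes overlapped. Their median site score was 11.0 (order-statistic 95% interval 8.17 to 12.9), against 15.2 for the members' sites. The medians of STP1 (25.6) and ERD6 (17.1) lay above this interval, and those of ERDL6 (12.4) and SFP1 (11.4) within it. Among the other transporters PMT6 had the highest median, 15.6. Shares of the other transporters are given pooled and for single genes. Peaks of the other transporters lay in sites in 127 of 851 cases (14.9%, Wilson 95% interval 12.7 to 17.5). By gene, SUC1 (21.8%), PMT6 (20.5%) and PGLCT (33.3% of 9 peaks) lay above STP1 (20.3%) and ERDL6 (17.3%). SWEET1 (17.9%) lay above ERDL6 only, and the rest lay below both. Their sites were labelled 3' UTR in 33 of 58 cases (56.9%, 44.1 to 68.8). SUC1 and PMT6 each had 7 of 11 sites labelled CDS, whereas SFP1, with the same number, had none. MSS1 had 4 of its 9 sites labelled intron. Other genes resembled the members. SWEET12 (5 of 5 sites) and SWEET1 (4 of 4) had 3' UTR labels only, like SFP1 and ERDL6, as did TMT1 and PGLCT with 1 site each. In STP4 5 of 6 sites had the label, a share of 83.3% as in STP1. The members had been chosen with these lists in view, so these differences describe the genes and were not tested.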

How the data were processed

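iCLIP2 libraries of 3 replicates carried UMIs and were read as 50 nt single ends after 18 PCR cycles, per the labels' protocols. Tools in the submitters' processing notes are UMI-tools 1.0, bedtools 2.27.1, SAMtools, STAR 2.7.3a and FastQC 0.11.5, with the genome build TAIR10. How peaks were called and regions labelled is not stated in these sources. The authors deposited pooled lists of called peaks, binding sites and targets. The deposited score of a site is the highest peak score within it, per the file headers, and has no stated unit. Depth is unknown.

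Peaks were assigned to genes by the spans of RefSeq TAIR10.1, whose coordinates are not printed: 99.8% of protein-coding sites lay in the span of their own gene. Peaks in several spans were left out of counts over all genes. Shares have Wilson intervals and medians order-statistic intervals, at 95%, computed with Python 3.11.15, pandas 2.3.3 and scipy 1.17.1. Their coverage was checked only on simulated independent values, whereas sites and peaks of a gene are not independent. Peak assignment was checked on simulated lists. Named genes were the members and every listed transporter with a site. Members and lists were chosen with earlier results of these data known. No hypothesis test was made. No sequence was used.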

Additional observations from a re-analysis of the deposited data

How the results depend on the processing

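Of 21 alternatives over 7 results, 15 stayed within 1.5 times a count or within the 95% interval of a share or median, and 6 did not. Of the 60 sites in the members, 18 remained above the upper quartile of all scores. The share labelled 3' UTR was 21.7% with the label kept only up to 500 nt from the last site that bore it. The share of called peaks inside sites was 38.5% for peaks above the median score of the peak list (26.9% in all protein-coding genes), 38.8% with 5 nt allowed around a site (22.9% in all) and 22.0% without ERD6. The median gap between sites was 250 nt without ERD6. In each of the 3 settings the peak share stayed above that of all protein-coding genes (16.3% for the setting without ERD6). The members were chosen by their sites, and the peaks over all genes include those of 481 genes without a site. That choice favours this order, so its persistence is not read as support. By gene, the intervals of STP1 (14.2 to 28.3) and ERDL6 (11.1 to 26.0) in the main setting include 16.3%. Fewer sites pass a higher score threshold, fewer labels pass a distance limit, and a wider window takes in more peaks, by construction. For the other changes the cause was not tested. Alternatives that merged sites within 50 nt, left out PGLCT or counted each member once for the peak share were chosen after seeing the data. Leaving out a replicate was not possible, since the lists are pooled. No paired analysis was possible because there is 1 group. Unknown read depth and the lack of a control limit what the scores can show.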
